A study of Mus musculus with 11 samples.

Results

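The main olfactory epithelium (MOE), the nasal tissue that holds the olfactory sensory neurons (OSNs), was compared between mice homozygous for a deletion of the Taar2 to Taar9 cluster and wild type mice, for all expressed genes other than those deleted. This comparison rests on 7 of the 11 samples of the series, 3 wild type and 4 homozygous, and on the 16570 tested genes outside the cluster, of 24421 entries in the count table. The labels give all mice as C57BL/6 pups of postnatal day 1 to 2 and the tissue as main olfactory epithelium. The methods of the study describe an older age and a background mixed with 129 for this line, and which of these applies is not settled by the sources used here. The deletion removes every olfactory Taar gene together with TAAR enhancer 2, and leaves TAAR enhancer 1 in place. It is present in all cells of the body, and the MOE was taken whole, so fewer cells of a type and less RNA per cell cannot be told apart in any value below.

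Each mature OSN transcribes a single receptor gene, which is drawn from the large OR (odorant receptor, Olfr) family or from the much smaller TAAR (trace amine-associated receptor) family. The receptor signals through a G protein, an adenylyl cyclase and a cyclic nucleotide-gated channel in the cilia, and it also feeds back on the choice of further receptors. OSNs are short-lived and are replaced from basal stem cells. They lie among supporting (sustentacular) cells, which detoxify inhaled chemicals, and above Bowman's glands, which secrete mucus with odorant-carrying proteins. The comparison asks what else differs in this tissue once the Taar receptors are gone from the genome.

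Total counts were between 10451338 and 13415728 in the 7 libraries. The 14 olfactory Taar genes summed to 300 counts over the 3 wild type libraries and to 7 over the 4 homozygous ones, as the labels require. Defining markers of mature OSNs were present in all libraries (Omp, 346 to 737 CPM). CPM are read counts scaled to a common library size with edgeR's TMM factors, and a log2 fold change is that of homozygous over wild type unless stated. Homozygous replicate 2 stood apart: 25.8% of its counts came from Rn45s, the ribosomal RNA precursor, against 0.118% to 0.786% in the other 6. Xist, the transcript of the inactive X chromosome, was at 1327 to 4297 CPM in the 3 wild type libraries and at 1389 CPM in homozygous replicate 1, and at 0.880 to 1.205 CPM in homozygous replicates 2, 3 and 4. The latter 3 held 1710 to 2735 counts of 4 Y-linked genes, and the first 4 held 0 to 4. The sex of the pups therefore differed with genotype in all but 1 homozygous library, and the labels do not give it. The first principal component (46.3% of the variance) split the libraries into a set with wild type replicates 1 and 2 and homozygous replicates 1 and 2, and a set with wild type replicate 3 and homozygous replicates 3 and 4. Values within each set are called set 1 and set 2 below, and set 2 has only 1 wild type library.

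Outside the cluster, 0 of 16570 genes (0%) passed an adjusted p of 0.05 in edgeR's quasi-likelihood test. At an unadjusted p under 0.05, 300 genes (1.81%) were higher and 196 (1.18%) were lower in homozygous libraries. The DESeq2 Wald test gave 5 genes after adjustment, namely Ddx3y, Eif2s3y and Kdm5d on the Y chromosome, Fosb and Itgbl1. All 4 homozygous libraries lay above all 3 wild type libraries for 416 genes (2.51%) and below them for 407 (2.46%). These 823 genes included 309 of the 496 with an unadjusted p under 0.05. When the replicate number was added as a block to the fit of all 3 genotypes, 0 genes passed, with 185 higher and 97 lower at an unadjusted p under 0.05. With the block and only these 7 libraries, a fit chosen after seeing the data, 39 of 16161 genes passed in edgeR, 37 higher and 2 lower. Of the 39, 15 belonged to the skeletal muscle list and 4 to the sex-linked list described below. No wild type library has the replicate number 4, so homozygous replicate 4 did not enter the difference between genotypes in that fit.

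The median log2 fold change over all tested genes was 0.02, with 52.8% of the genes higher and 47.2% lower in homozygous libraries. The 95% confidence interval of a gene reached a median of 0.52 to either side on the log2 scale, a factor of 1.43. It was wider at low levels, with a median factor of 2.31 under 1 CPM and 1.32 over 100 CPM. For 12136 of the 16558 genes with an interval (73.3%), the interval lay within a 2-fold change in both directions, and for 6087 (36.8%) within a 1.5-fold change. In all, 224 genes with an interval had an estimate more than 2-fold higher in homozygous libraries and 116 more than 2-fold lower.

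**Figure D1:**
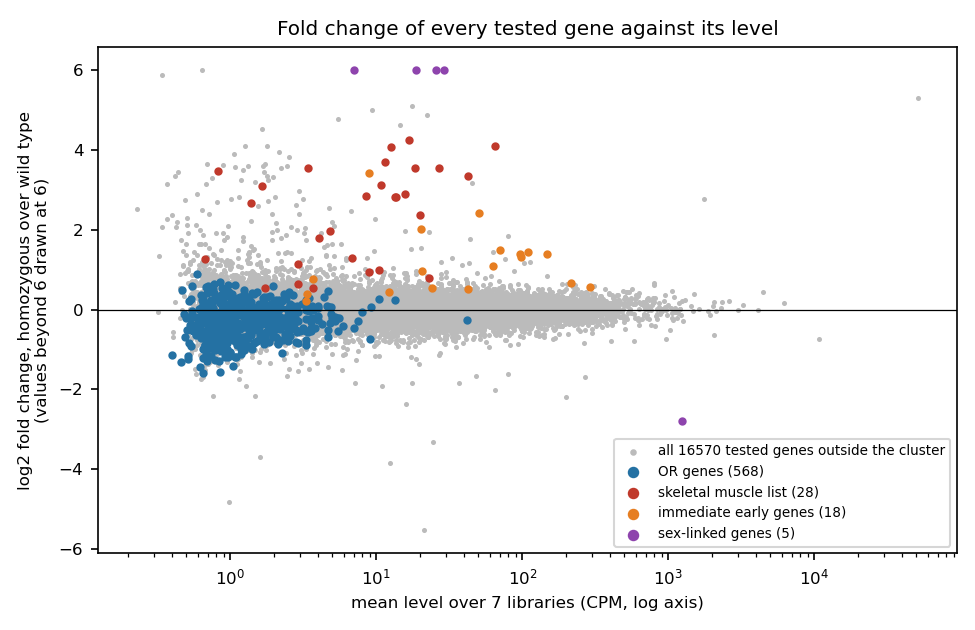
Log2 fold change of homozygous over wild type libraries (vertical axis) against the mean CPM over the 7 libraries (horizontal log axis), 1 point per tested gene, with OR, skeletal muscle, immediate early and sex-linked genes in colour. The 16570 points centre on 0.02, the 28 muscle genes and 18 immediate early genes all lie above 0, and 422 of 568 OR genes lie below it.

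Among the 10 genes with the lowest p and homozygous libraries all above wild type, the highest level was that of Rasl11b, which encodes a small GTPase. It was at 28.4, 34.7 and 34.4 CPM in wild type and at 41.7, 52.2, 44.2 and 52.2 CPM in homozygous libraries, a log2 fold change of 0.55 ± 0.15 (SE). Slc2a4, the insulin-responsive glucose transporter, was at 15.4, 16.1 and 19.7 CPM in wild type and at 24.4, 23.4, 24.8 and 29.9 CPM in homozygous libraries. The lowest homozygous library lay above the highest wild type one in both genes, and neither gene passed after adjustment.

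Oasl2 and Rtp4, both known to be induced by interferon, were also in this group. Oasl2 was at 22.1, 17.7 and 16.2 CPM in wild type and at 45.5, 36.6, 29.3 and 27.5 CPM in homozygous libraries, with a log2 fold change of 0.90 (95% confidence interval 0.35 to 1.44). Rtp4 was at 8.62, 4.97 and 8.40 CPM against 16.9, 13.96, 14.01 and 11.7 CPM. Every homozygous library exceeded every wild type library in both genes, and the difference was 0.79 and 0.59 in log2 in set 2 and 1.03 and 1.13 in set 1. Oasl2 had an adjusted p of 0.996 in edgeR's quasi-likelihood test and passed with the replicate block on these 7 libraries (adjusted p 0.0447), but not with the block and all 3 genotypes.

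The other genes of this kind were low. Cox4i2, a subunit isoform of cytochrome c oxidase, had the lowest p of those higher (log2 fold change 1.21 ± 0.28 SE, unadjusted p from edgeR 9.1e-04, adjusted p 0.996) at 1.97 ± 0.70 CPM in wild type (SD, n = 3) and 4.58 ± 0.84 CPM in homozygous libraries (SD, n = 4). Tubb4a, a neuronal tubulin, averaged 5.88 and 11.6 CPM. Igsf21, an adhesion protein of synapses, was at 2.26 to 3.37 CPM in wild type and 5.67 to 7.04 CPM in homozygous libraries. Gem, a GTPase that dampens calcium channels, averaged 3.40 and 6.29 CPM, and Alk, a receptor tyrosine kinase, 1.36 and 2.79 CPM. The tenth gene, Ddx3y, is Y-linked and was counted at 0, 0 and 1 in wild type and at 1, 652, 875 and 505 in homozygous libraries, so it followed the Xist pattern and not the genotype in homozygous replicate 1.

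Of the genes with homozygous libraries all below wild type, Itgbl1 (chromosome 14, positions 123659971 to 123975618 on the plus strand, GRCm38) had the lowest p of all genes outside the cluster, with an unadjusted p of 3.6e-04 and an adjusted p of 0.996 in edgeR. It encodes a secreted protein with integrin beta-like repeats. It was at 29.9, 45.1 and 41.3 CPM in wild type and at 18.8, 18.5, 24.6 and 24.0 CPM in homozygous libraries, a log2 fold change of -0.85 (95% confidence interval -1.23 to -0.47). The wild type libraries all exceeded the highest homozygous one, and the 4 heterozygous libraries, which share these wild type controls, were at 22.1 to 25.2 CPM. Its difference was -0.99 in set 1 and -0.75 in set 2, and its adjusted p by DESeq2 was 0.012.

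Fmo6 and Fmo5 were also among these genes and belong to the flavin monooxygenases, which oxidise nitrogen- and sulfur-containing chemicals including amines. Fmo6 was at 94.4, 83.9 and 85.3 CPM in wild type and at 49.0, 44.6, 58.5 and 74.5 CPM in homozygous libraries (log2 fold change -0.63 ± 0.17 SE). Fmo5 was at 27.0, 22.5 and 16.7 CPM against 13.5, 13.4, 15.2 and 14.5 CPM. The homozygous libraries were lower throughout. The separation of Fmo6 and Fmo5 was narrower in set 2, with differences of -0.36 and -0.17 in log2 against -0.92 and -0.86 in set 1. Fmo6 is on chromosome 1 and Fmo5 is on chromosome 3. How reads shared by related members were counted is not given in the sources used here.

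Itih5, a hyaluronan-binding matrix protein, was at 42.2, 58.5 and 38.2 CPM in wild type and at 31.4, 30.6, 28.0 and 24.4 CPM in homozygous libraries. Stxbp5l, a brake on vesicle release, averaged 19.2 and 13.1 CPM. The remaining genes were lower still in level: 4930570G19Rik, a long noncoding RNA, averaged 10.31 and 5.89 CPM, Erich5 4.45 and 2.103 CPM, Anks4b, a scaffold of microvilli, 3.49 and 1.47 CPM, and Olfr968 1.62 and 0.694 CPM. Their intervals ended between -0.19 and -0.46 in log2 on the side of 0.

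**Figure D2:**
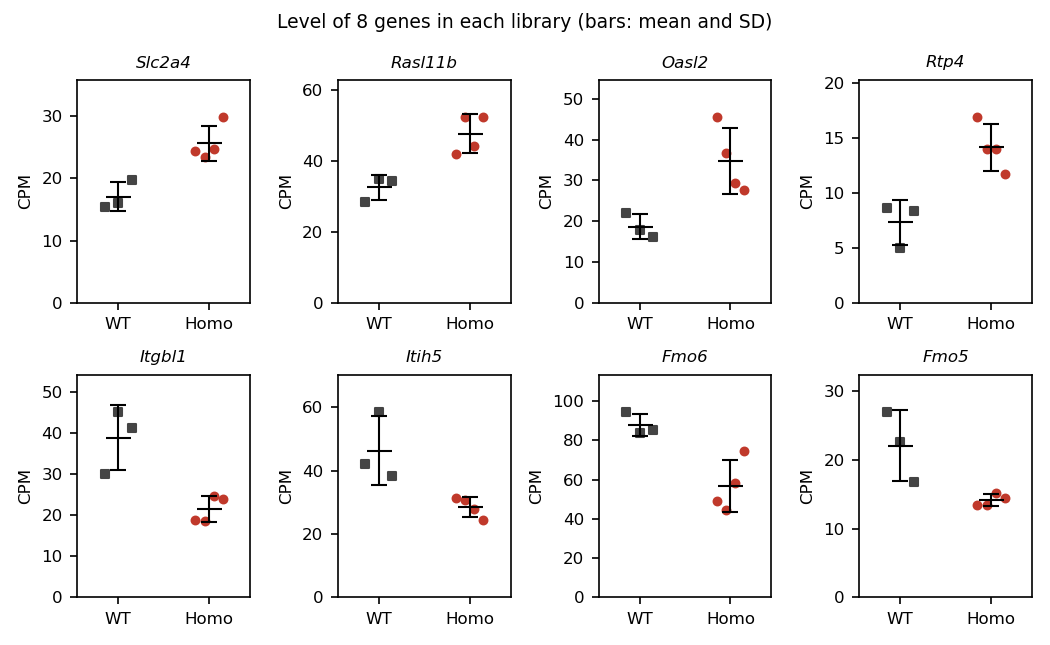
CPM of 8 genes in each wild type (WT, grey squares, n = 3) and homozygous (Homo, red circles, n = 4) library, with the mean and SD as black bars and each axis starting at 0. The groups do not overlap in any panel, and the gap in CPM is narrowest for Fmo5, where the lowest wild type library is at 16.7 CPM and the highest homozygous one at 15.2 CPM.

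By size of the estimate, at a mean of 5 CPM or more, the Y-linked Kdm5d and Ddx3y came first among the non-overlapping genes that were higher. Lif, a cytokine that drives OSN renewal after injury, was at 44.8 CPM in homozygous replicate 2 and at 3.61 to 7.32 CPM in the other 3, against 2.42 to 3.45 CPM in wild type. Without that library its log2 fold change was 0.68 instead of 2.26. Islr2, which promotes axon extension, was at 15.4 CPM in homozygous replicate 1 and at 3.45 to 6.11 CPM in the others, against 0.463 to 2.50 CPM in wild type. Mybpc1 encodes a myosin-binding protein of slow muscle and was at 13.9 to 59.0 CPM, against 6.67 to 11.7 CPM. With the replicate block on these 7 libraries Mybpc1 passed in edgeR (adjusted p 0.0083), which it did not with the block and all 3 genotypes, and its log2 fold change was 0.22 with a term for the muscle sum.

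On the lower side, Mup5, a major urinary protein that carries small odorous ligands, was at 36.4, 34.8 and 8.23 CPM in wild type and at 1.85, 5.78, 0.0734 and 0.0861 CPM in homozygous libraries. Chil6, a chitinase-like secreted protein, was at 129, 57.4 and 50.8 CPM against 19.3, 9.27, 32.4 and 38.7 CPM, with a log2 fold change of -2.66 in set 1 and -0.51 in set 2. Zfp932, a zinc finger gene, averaged 15.3 and 6.77 CPM, Bche, the plasma cholinesterase, 14.2 and 6.37 CPM, and Pi15, a secreted peptidase inhibitor, 38.9 and 17.7 CPM. In the 4 heterozygous libraries Mup5 spanned 0 to 39.0 CPM and so covered the values of both groups. With the replicate block on the 7 wild type and homozygous libraries Mup5 passed in edgeR (adjusted p 0.023), and with the block and all 3 genotypes it did not.

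Most OR genes had lower estimates in homozygous libraries. Of 1125 Olfr symbols, 568 were tested, and 422 had a negative and 146 a positive log2 fold change, with a median of -0.29, against 0.02 for all tested genes. At an unadjusted p under 0.05, 35 OR genes (6.16%) were lower, against 1.18% of all tested genes, and 0 were higher. Homozygous libraries were all below wild type for 59 OR genes (10.4%), against 2.46%, and all above for 0. The summed OR level was 1041, 941 and 1138 CPM in wild type and 862, 673, 1000 and 920 CPM in homozygous libraries. Homozygous replicate 2 was the lowest and homozygous replicate 3 lay within the wild type range, so the sums overlapped (1040 ± 98.8 against 864 ± 139 CPM, SD).

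The lower estimates were spread over receptors of all levels. In 4 groups of 142 OR genes by level, from 0.397 to 41.8 CPM, the medians were -0.37, -0.28, -0.31 and -0.24 in log2, and 101 to 109 genes were lower in each group. The OR with the highest level, Olfr536, was at 41.7, 53.5 and 43.3 CPM in wild type and at 38.2, 33.6, 44.5 and 37.8 CPM in homozygous libraries. The groups overlapped in homozygous replicate 3. Olfr1252 (log2 fold change -1.59) and Olfr389 (-1.57) had the largest negative estimates and averaged 0.645 and 0.853 CPM over the 7 libraries, so a few counts decide them, and reads shared between related receptors could be split between them. Olfr968, Olfr1252 and Olfr389 had the lowest p values of the family, and in each of them all homozygous libraries were below wild type.

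Class I and class II are the older fish-like and the tetrapod branches of the OR family. By symbol number, 57 tested genes (Olfr543 to Olfr715, Olfr33 and Olfr78) were taken as class I, with a median of -0.17, and 511 as class II, with a median of -0.31. In the number range, 10 of the 57 lie over 1 Mb beyond the class I cluster on chromosome 7. The 47 within the cluster (positions 102476579 to 105369355) had a median of -0.17, 26 lower and 21 higher, and 3 (6.38%, against 2.46% of all tested genes) with all homozygous libraries below wild type. The class II median was -0.28 in set 1 and -0.22 in set 2, and the class I median was -0.27 and 0.09. The difference between the classes was not tested. The class II sum was 947, 870 and 1060 CPM in wild type and 791, 620, 913 and 835 CPM in homozygous libraries, and homozygous replicate 3 lay within the wild type range.

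**Figure D3:**
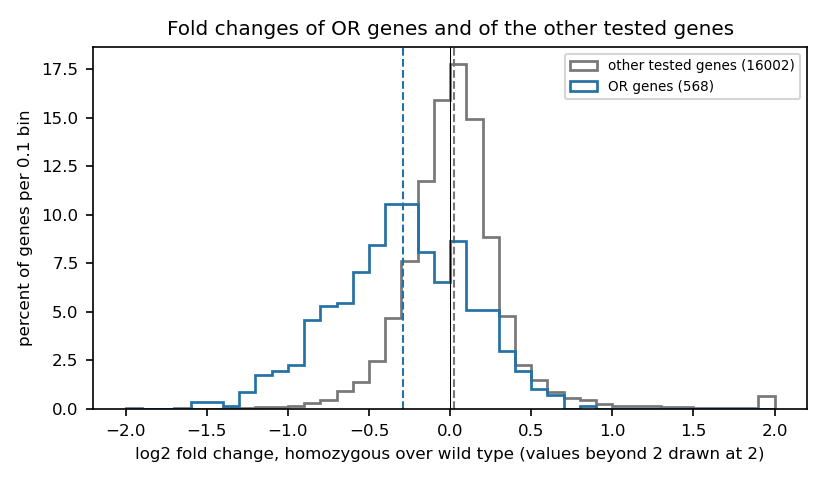
Percent of genes per bin of 0.1 in log2 fold change (homozygous over wild type) for 568 OR genes (blue) and the other 16002 tested genes (grey), with dashed lines at the medians. The OR distribution is shifted to the left, with its median at -0.29 against 0.02 for the other genes.

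Mature OSN markers also had lower estimates. The 10 listed genes all had negative estimates (median -0.29), 1 of them (10%, against 1.18% of all tested genes) with an unadjusted p under 0.05. That was Slc17a6, the vesicular glutamate transporter of OSNs, at 69.5, 57.5 and 60.3 CPM in wild type and 53.8, 39.2, 49.6 and 44.1 CPM in homozygous libraries. Omp, the classic marker of OSN maturity, was at 737, 599 and 349 CPM and at 451, 346, 494 and 524 CPM. Wild type replicate 3 was as low as the lowest homozygous library, so the Omp groups overlapped, and the list median was -0.51 in set 1 and 0.25 in set 2. The same change of sign between the sets was seen for the 14 transduction genes (median -0.17, -0.36 and 0.25), such as Gnal, the olfactory G protein alpha subunit (-0.34), and Cnga2, the channel subunit (-0.28). All 14 intervals lay within a 2-fold change.

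The OR sum set against the sum of the 10 mature OSN markers was 419, 456 and 778 per 1000 in wild type and 505, 494, 570 and 515 per 1000 in homozygous libraries. The homozygous ratios lay inside the wild type range, whose upper end was set by wild type replicate 3. The library sets went opposite ways. In set 1 the homozygous ratios (505 and 494) were above the wild type ones (419 and 456). In set 2 the homozygous ratios (570 and 515) were below the only wild type one (778).

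Markers of earlier stages of the lineage showed medians near 0, and dividing-cell genes a lower one. Immature OSN markers had a median of 0.02 (6 of 10 higher), with sums of 2114 ± 330 CPM in wild type and 2102 ± 163 CPM in homozygous libraries (SD). Gap43, the growth cone protein, had a log2 fold change of 0.01 (95% confidence interval -0.33 to 0.35). Globose basal and neuronal precursor markers had a median of 0.08, and Neurog1, which commits precursors to the neuronal fate, had an estimate of 0.40 (-0.20 to 1.01). Dividing-cell genes had a median of -0.15, with 15 of 20 lower, and their median was -0.25 in set 1 and 0.08 in set 2. The 23 regulators of receptor choice, such as Lhx2 (0.22, interval -0.18 to 0.60), which binds OR enhancers, had a median of 0.02. The 25 apoptosis genes had a median of 0.02 and the 18 unfolded protein response genes 0.04.

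**Figure D4:**
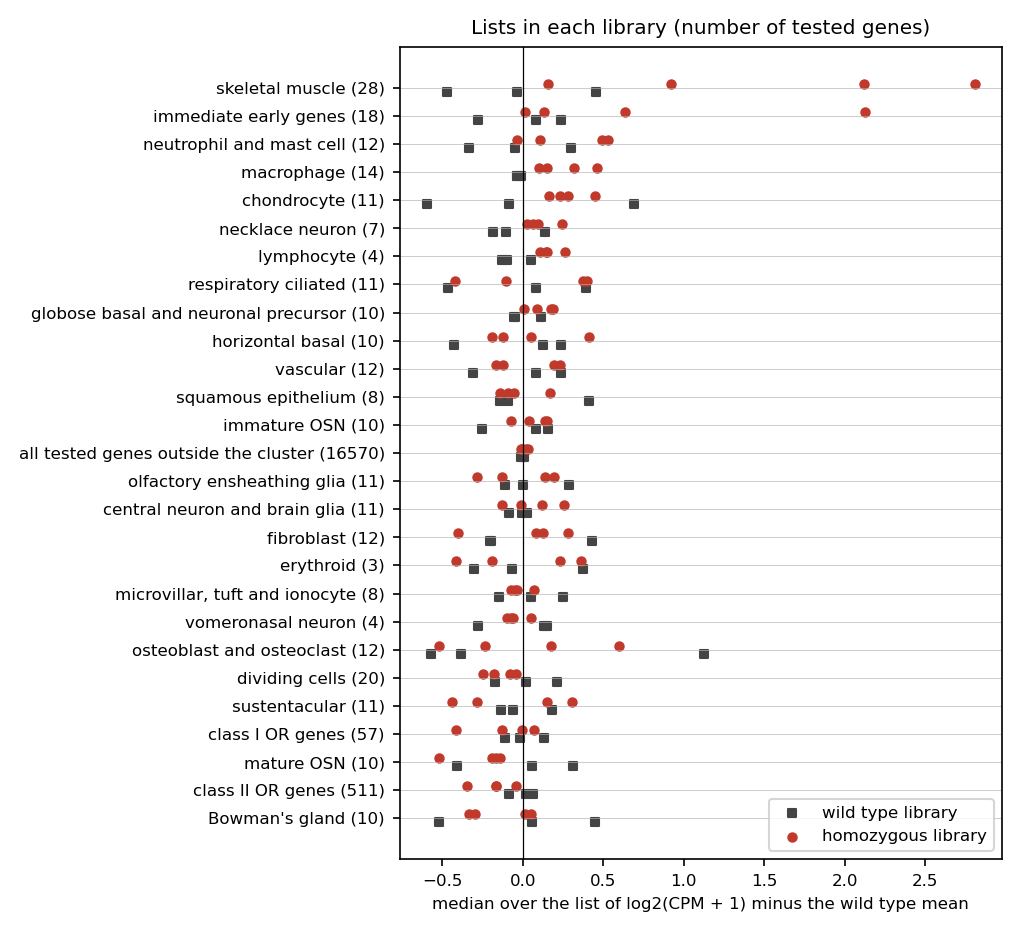
Median over each cell type list, the immediate early genes, both OR classes and all tested genes of log2(CPM + 1) minus the wild type mean (horizontal axis, 1 point per library), for wild type (grey squares, n = 3) and homozygous (red circles, n = 4) libraries, ordered by the median log2 fold change of the fit. The groups overlap in most of the lists drawn, and the points farthest to the right are homozygous replicates 3 and 2 for skeletal muscle (2.81 and 2.12) and homozygous replicate 2 for immediate early genes (2.13).

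Supporting and glandular cells varied more between libraries of a genotype than between genotypes. Sustentacular markers had a median of -0.17, with sums of 6263 ± 966 and 5655 ± 1584 CPM (SD). Cyp2g1, an olfactory-specific P450 of these cells, was at 1091, 632 and 1022 CPM in wild type and at 540, 505, 940 and 1102 CPM in homozygous libraries. It was low in homozygous replicates 1 and 2 and not in 3 and 4. Sec14l3, a lipid-binding protein, was at 852, 729 and 704 CPM against 268, 279, 642 and 582 CPM, and its groups did not overlap (log2 fold change -0.78, interval -1.60 to 0.03). Of the 11 tested sustentacular markers it was the 1 (9.09%, against 2.46% of all tested genes) with all homozygous libraries below wild type. Bowman's gland markers summed to 29206, 18769 and 7724 CPM in wild type and to 13944, 14681, 12399 and 4979 CPM in homozygous libraries, with a median of -0.45. Wild type replicate 1 alone decided much of that: without it the median was -0.09.

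Secreted odorant carriers varied widely between libraries. The 8 tested lipocalin and odorant-binding protein genes had a median of -1.51, which was -1.41 in set 1 and 1.12 in set 2. Obp1a was at 71.9, 71.5 and 0.888 CPM in wild type and at 1.18, 1.85, 1.17 and 0 CPM in homozygous libraries, so wild type replicate 3 was as low as the homozygous ones. Obp2a was at 807, 527 and 0.162 CPM against 114, 284, 151 and 5.94 CPM. Lcn2, an iron-scavenging lipocalin that is also in the neutrophil list, had a higher estimate, at 97.9, 57.8 and 39.6 CPM against 272, 160, 46.5 and 120 CPM (95% confidence interval of the log2 fold change 0.09 to 2.32, unadjusted p 0.037 in edgeR), and homozygous replicate 3 lay within the wild type range. Among enzymes that act on odorants, Ugt2a1, the olfactory glucuronosyltransferase, was at 461, 327 and 535 CPM against 328, 264, 441 and 324 CPM, and Aldh1a7 was at 103, 96.9 and 80.7 CPM against 64.7, 60.9, 80.4 and 56.5 CPM with non-overlapping groups. Of 19 aldehyde dehydrogenase genes 15 were lower (median -0.13), of 39 P450 genes 23 (median -0.04) and of 20 glutathione S-transferase genes 13 (median -0.10). Over all tested genes 47.2% were lower. Groups did not overlap for 2 of the 19 aldehyde dehydrogenase genes (10.5%, against 2.46% of all tested genes), both lower.

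Apart from the 5 tested sex-linked genes, skeletal muscle genes had the largest list median. All 28 tested members were higher in homozygous libraries, with a median log2 fold change of 2.82, 11 (39.3%) with an unadjusted p under 0.05 and 3 (10.7%) with non-overlapping groups, against 1.81% and 2.51% of all tested genes. Their sum was 52.8, 129 and 81.5 CPM in wild type and 225, 656, 1216 and 105 CPM in homozygous libraries. Homozygous replicate 4 lay within the wild type range. Acta1, the actin of muscle fibres, was at 1.02, 12.99 and 5.005 CPM in wild type and at 34.2, 129, 270 and 5.77 CPM in homozygous libraries, and Myh3, the embryonic myosin, at 0.278, 3.21 and 0.807 CPM and at 23.7, 46.7, 40.5 and 1.12 CPM. When homozygous replicates 1, 2 and 3 and the 2 muscle-rich heterozygous libraries were left out, the list median was 0.13. These libraries were left out for their muscle sums, so the lower median follows from that choice. With the replicate number as a block and these 7 libraries, 15 muscle genes passed the adjusted threshold in edgeR, and with the block and all 3 genotypes 0 did. The fit to 7 libraries takes nothing from homozygous replicate 4, the library whose muscle sum lay within the wild type range. Muscle fibres are not part of the epithelium but lie next to it in the nose, and their part in other differences was not tested.

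Immediate early genes are switched on within minutes by neuronal activity, growth factors or stress. All 18 had higher estimates in homozygous libraries (median 1.02). At an unadjusted p under 0.05 there were 8 (44.4%), and 3 (16.7%) had non-overlapping groups, against 1.81% and 2.51% of all tested genes. The sums were 867, 921 and 624 CPM in wild type and 1207, 3339, 993 and 1003 CPM in homozygous libraries. The sums did not overlap, and homozygous replicate 2, the library rich in Rn45s, was by far the highest. Without that library the median was 0.29. Fos, the best known member, was at 14.5, 20.8 and 7.59 CPM in wild type and at 52.1, 226, 13.4 and 16.9 CPM in homozygous libraries. Fosb was at 1.02, 1.92 and 1.05 CPM and at 8.24, 42.6, 1.54 and 6.02 CPM, and its log2 fold change of 3.43 had an interval of 1.40 to 5.45. Junb was at 36.1, 34.4 and 32.2 CPM and at 58.3, 228, 51.7 and 47.9 CPM, and Dusp1, a phosphatase that ends kinase signalling, at 57.7, 63.0 and 46.3 CPM and at 109, 348, 67.8 and 78.4 CPM. Junb and Dusp1 were higher in every homozygous library, whereas Fos in homozygous replicates 3 and 4 and Fosb in homozygous replicate 3 lay within the wild type range. The chemokine Cxcl1 followed homozygous replicates 1 and 2, with 11.7 and 51.4 CPM against 0.0861 to 0.641 CPM in the other 5 libraries.

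The promoters of these genes are shown because the members were higher together in the same libraries. The letters TGACG, the core of the site bound by CREB-family factors (CRE), occurred on either strand in the promoter of 11 of the 14 immediate early genes with a RefSeq sequence, and in 23.0% of all 27025 genes with a promoter in that set. The full palindrome TGACGTCA, which contains the core on both strands, occurred in 2 of the 14, Btg2 and Dusp1, and in 2.03% of all genes. A match describes the letters only. The 300 bases from 250 before to 50 after the start of the gene are given 5′ to 3′ on the gene's strand (RefSeq, GRCm38.p6) with TGACG or its reverse complement in capitals, for Fos (chr12:85473640-85473939, plus strand), Fosb (chr7:19309996-19310295, minus), Junb (chr8:84978699-84978998, minus) and Dusp1 (chr17:26508423-26508722, minus).
Fos: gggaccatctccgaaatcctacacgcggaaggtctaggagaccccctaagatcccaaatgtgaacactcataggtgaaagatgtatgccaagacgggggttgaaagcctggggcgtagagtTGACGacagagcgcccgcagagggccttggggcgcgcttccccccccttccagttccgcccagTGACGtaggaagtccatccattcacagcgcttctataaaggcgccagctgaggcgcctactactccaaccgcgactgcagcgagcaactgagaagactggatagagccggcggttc
Fosb: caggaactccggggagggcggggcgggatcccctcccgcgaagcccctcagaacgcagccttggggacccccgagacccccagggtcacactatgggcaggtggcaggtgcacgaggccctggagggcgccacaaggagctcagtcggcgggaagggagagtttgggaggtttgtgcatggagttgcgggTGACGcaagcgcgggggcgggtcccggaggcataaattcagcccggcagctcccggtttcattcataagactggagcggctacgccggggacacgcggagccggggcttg
Junb: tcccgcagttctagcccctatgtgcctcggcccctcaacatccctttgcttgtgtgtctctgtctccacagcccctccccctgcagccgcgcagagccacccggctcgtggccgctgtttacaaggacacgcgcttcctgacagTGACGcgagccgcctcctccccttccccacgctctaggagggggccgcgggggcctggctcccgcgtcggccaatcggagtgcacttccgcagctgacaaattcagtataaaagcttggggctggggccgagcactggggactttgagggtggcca
Dusp1: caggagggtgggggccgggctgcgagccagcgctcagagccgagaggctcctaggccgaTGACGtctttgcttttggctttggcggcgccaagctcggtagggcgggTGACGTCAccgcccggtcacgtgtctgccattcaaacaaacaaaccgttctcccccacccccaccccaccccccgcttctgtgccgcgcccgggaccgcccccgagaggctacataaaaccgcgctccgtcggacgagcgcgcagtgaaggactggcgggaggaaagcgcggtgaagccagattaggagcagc
The Fos promoter held 2 matches and those of Fosb and Junb 1 each. That of Dusp1 held 3, of which 2 overlap in the full palindrome.

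**Figure D5:**
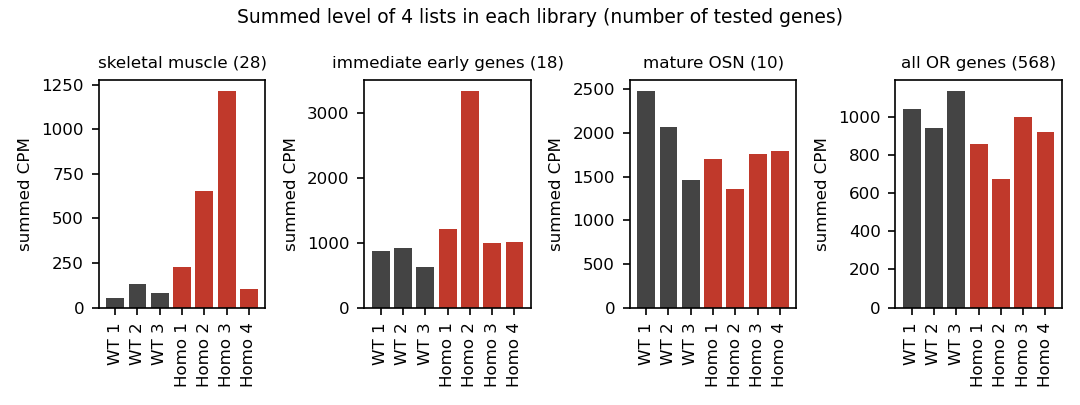
Summed CPM (vertical axes from 0) of the tested members of 4 lists in each wild type (WT, grey) and homozygous (Homo, red) library. Skeletal muscle is highest in homozygous replicate 3 (1216 CPM) and immediate early genes in homozygous replicate 2 (3339 CPM), whereas mature OSN markers and OR genes overlap between genotypes.

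Immune genes had slightly higher estimates. Of 14 macrophage markers 12 had positive estimates (median 0.26), and 4 (28.6%) had all homozygous libraries above wild type, against 2.51% of all tested genes. C1qc was at 25.7, 25.2 and 26.8 CPM in wild type and at 38.5, 37.7, 34.0 and 36.4 CPM in homozygous libraries (log2 fold change 0.50, interval 0.19 to 0.81). C1qb was at 38.5, 29.7 and 32.5 CPM against 49.0, 51.0, 42.5 and 46.1 CPM. The 3 chains of the complement component C1q, all made by tissue macrophages, were each higher in all 4 homozygous libraries. Csf1r, the receptor that maintains macrophages, was at 57.4 to 66.0 CPM against 64.9 to 74.8 CPM and overlapped. The macrophage sum was 304 ± 7.67 CPM in wild type and 366 ± 50.5 CPM in homozygous libraries (SD), and it was above wild type in all 4. It was at 419, 399, 321 and 325 CPM in homozygous libraries against at most 312 CPM in wild type. The macrophage list median was 0.43 in set 1 and 0.10 in set 2. Of 18 MHC genes 15 were higher (median 0.29) and 3 (16.7%, against 2.51%) had all homozygous libraries above wild type, among them the class II chain H2-Eb1 at 2.41, 3.05 and 3.39 CPM against 5.13, 4.36, 4.55 and 5.51 CPM. In neutrophil and mast cell markers 10 of 12 were higher (median 0.42), 2 of them (16.7%, against 1.81%) with an unadjusted p under 0.05, and 0 had all homozygous libraries above wild type, against 2.51% of all tested genes. Their summed level went the other way, at 471 ± 298 CPM in wild type and 429 ± 193 CPM in homozygous libraries (SD).

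Among the other families, those farthest from the median of all genes were BPI-fold genes (-0.43, 8 tested) and Ms4a genes (0.42, 4 tested). Next were glucuronosyltransferase and sulfotransferase genes (-0.36, 15 tested), chemokine genes (0.33, 18 tested) and type 2 vomeronasal receptors (-0.32, 3 tested of 122 symbols). The 3 vomeronasal receptors averaged 0.540 to 1.29 CPM over the 7 libraries, so a few counts decide their median. Of these families, BPI-fold and Ms4a genes had medians of opposite sign in set 1 and set 2. Cytoplasmic ribosomal protein genes had a median of 0.15, with 63 of 81 higher, 0.18 in set 1 and -0.06 in set 2. Complex I subunits had a median of 0.05, axon guidance genes 0.04, potassium channels 0.03, solute carriers 0.01 and clustered protocadherins -0.01. Intraflagellar transport and Bbs genes, which build the cilia, had a median of -0.12, with 17 of 22 lower. Zinc finger (Zfp) genes had a median of -0.06, and 11 of 345 (3.19%) lay below wild type in all homozygous libraries and 4 (1.16%) above, against 2.46% and 2.51% of all tested genes. Horizontal basal cells (0.06), ensheathing glia (-0.01), vascular cells (0.05), fibroblasts (-0.03), chondrocytes (0.18) and respiratory ciliated cells (0.09) had medians within 0.2 of 0. In all, 41 of the 57 lists with a tested member had medians within 0.2 of 0, and 32 had medians of opposite sign in set 1 and set 2. Summed levels separated the genotypes for 2 of these 57 lists, immediate early genes and macrophage markers, and for 0 lists in the lower direction. The 208 symbols of type 1 vomeronasal receptors gave 0 tested genes.

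The deleted genes span positions 23938572 to 24109534 of chromosome 10. Of the 12 tested genes within 1 Mb, 0 had an unadjusted p under 0.05 in edgeR and 0 had non-overlapping groups (median -0.14), a number of genes too small to set against the shares over all tested genes. Within 10 Mb, 71 genes had a median of -0.06. In that window Tnfaip3, an inhibitor of inflammatory signalling, had an unadjusted p of 0.044 and was at 79.9 CPM in homozygous replicate 2 and at 8.35 to 16.2 CPM in the other 3, against 9.12 to 10.34 CPM in wild type. Myb, a transcription factor of dividing progenitors, lay 2.78 Mb from the deletion and was at 46.1, 40.2 and 42.5 CPM in wild type and at 37.6, 37.4, 34.9 and 35.6 CPM in homozygous libraries, with non-overlapping groups and an interval of -0.55 to 0.08. Over all of chromosome 10, 1.99% of 754 genes had an unadjusted p under 0.05, 9 higher and 6 lower, where 300 and 196 of all 16570 tested genes did. On the X chromosome, where the Xist and Y-linked counts differed between the groups, the median of 520 genes was -0.11, and 24 (4.62%) lay below wild type in all homozygous libraries and 5 (0.962%) above, against 2.46% and 2.51% of all tested genes.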

How the data were processed

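The authors deposited raw read counts per gene, unfiltered and not normalised, for 11 libraries of polyA-selected, directional total RNA. Per the labels, the submitters used mm10, HISAT2 2.1.0, Trimmomatic 0.36, DESeq2 1.20.0 and the featureCounts program of Subread 1.6.2, and the gene annotation, strand setting and treatment of multi-position reads are not given in the sources used here. A normalised table was also deposited and was not used here. Counts in columns of no sample: 0. Genes passing filterByExpr were fitted in edgeR (version 4.0.16, R version 4.3.3) with TMM scaling and the 3 genotypes over all 11 libraries, so the heterozygous libraries add to the estimate of spread. Quasi-likelihood F-tests compared homozygous with wild type, and p-values were adjusted by the Benjamini-Hochberg method over all tested genes. DESeq2 (version 1.42.0) was an alternative. Set 1 and set 2 differences were log2 ratios of mean CPM with 0.5 added. Fold changes of genes with 3 or fewer counts in a group have no interval.

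The gene lists and comparisons were chosen with earlier results of these data known. Genes were named by rule: in each list the 4 with the highest mean CPM and the 3 with the lowest p, and outside lists, in each direction among non-overlapping genes, the 10 with the lowest p (mean CPM at least 1) and the 5 with the largest fold (mean CPM at least 5). Many genes that the rule names are given only in counts, 1 is not reported here, and others were named after their values were seen. Positions came from GENCODE M21, which matched 23311 of 24421 symbols. The labels do not tie libraries to animals or litters, so p-values measure the spread between these libraries. The replicate numbers of wild type and homozygous libraries were checked for pairing: deviations from the group means correlated at 0.35, 0.46 and 0.44 for the pairs 1, 2 and 3, so the blocked counts are given beside the unblocked ones, although libraries of different numbers in the same set correlated as well (wild type 3 with homozygous 4 at 0.49, 1 with 2 at 0.44 and 2 with 1 at 0.27). Total counts per library were between 10451338 and 13415728. Alternatives were other scalings, filters, DESeq2, the block, covariates and leaving out each library.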

Additional observations from a re-analysis of the deposited data

Results flagged for a closer look

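In groups of 4 libraries, a value was singled out when its gap to the nearest other library took up more of the group's range than Dixon's 95% critical value allows. This held for 9 of 87 groups tested. The nominal rate of 1 in 20 cannot be set against that count. The groups share libraries and in part genes, and some genes were named for a large fold, which 1 extreme library can produce. The wild type group, with 3 libraries, was not tested in this way. Homozygous replicate 2 was apart in 4 of the 9. Its Rn45s share was 25.8% of counts, its Lif level was 44.8 CPM, its immediate early gene sum was 3339 CPM and its sum of receptor trafficking and mature OSN genes was 1219 CPM, the lowest of the 4.

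Homozygous replicate 1 was apart in the sum of sex-linked genes (1389 CPM, nearly all of it Xist) and in the sum of immature OSN markers (2344 CPM, the highest). Homozygous replicate 4 was apart in Zfp932 (2.75 CPM, the lowest), in the BPI-fold gene sum (11448 CPM, the lowest) and in the vomeronasal neuron marker sum (683 CPM, the highest). What these values share was not tested.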

How the results depend on the processing

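The results were recomputed under 21 alternatives, of which 7 left out 1 library each and 4 were chosen after seeing the data. Of 29 named genes, 28 kept their sign in every alternative that gave a value for them (20 for Kdm5d, Ddx3y and Mup5), and Ddx3y changed sign to -0.0282 with a term for Xist. Of 57 list medians, 16 kept 1 sign. The OR median stayed between -0.38 and -0.19, whereas the class I median became 0.01 without wild type replicate 1.

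The count after adjustment was 5 with DESeq2 and 39 with the replicate block fitted to only the wild type and homozygous libraries, where 533 genes were higher and 485 lower at an unadjusted p under 0.05. With the block and 3 genotypes 0 passed after adjustment and these were 185 and 97, with a term for library set 602 and 526, and with a term for the muscle sum 455 and 496. With no filter on low counts 300 genes were lower. With homozygous replicates 1, 3 and 4 against wild type alone 158 were higher. Leaving out each library gave 0 adjusted calls throughout, 159 (without homozygous replicate 2) to 411 (without wild type replicate 3) higher, 120 (without homozygous replicate 4) to 355 (without homozygous replicate 1) lower, 516 to 1678 genes all above and 532 to 1633 all below wild type, where fewer libraries make separation easier. The muscle median was -0.0816 with the term for the muscle sum and 0.36 with that for Xist. Without the 5 libraries rich in muscle RNA, which leaves 1 homozygous library that is assumed to vary like the others, 1149 genes were lower at an unadjusted p under 0.05, 5410 were above and 5041 below wild type, and the immediate early and muscle medians were 0.084 and 0.13. The causes were not tested. Sex, library set and muscle content differ with genotype in part, and genes under 1 CPM have wide intervals.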

Other observations

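A set of 33 genes known to be induced by interferon was put together after Oasl2 and Rtp4 had been seen, so it is a description without a test. Of these, 30 had higher estimates in homozygous libraries, with a median log2 fold change of 0.58. At an unadjusted p under 0.05 in edgeR there were 10, and 10 had all homozygous libraries above wild type, where 1.81% and 2.51% of all tested genes did. The summed level was 451, 403 and 493 CPM in wild type and 615, 531, 602 and 559 CPM in homozygous libraries, so the sums did not overlap. Slfn2, a regulator of immune cell quiescence, averaged 7.68 CPM in wild type and was at 14.97, 15.9, 11.4 and 9.47 CPM in homozygous libraries. Irf7, the factor that amplifies the interferon response, averaged 7.51 CPM and was at 15.98, 9.71, 16.1 and 13.3 CPM. Ifit2 (-0.40), Ifih1 (-0.24) and Cmpk2 (-0.06) had negative estimates.

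The core of the interferon-stimulated response element, a pair of GAAA repeats spaced by any 2 bases on either strand, occurred in the promoters of 11 of the 22 members with a RefSeq sequence and in 3.99% of all genes with one. The promoter of Isg15 (chr4:156200769-156201068, minus strand, RefSeq, GRCm38.p6), a ubiquitin-like protein, is shown as an example with the matches in capitals, because 3 overlapping matches lie near its start. The promoter of Oasl2 held 0 matches.
Isg15: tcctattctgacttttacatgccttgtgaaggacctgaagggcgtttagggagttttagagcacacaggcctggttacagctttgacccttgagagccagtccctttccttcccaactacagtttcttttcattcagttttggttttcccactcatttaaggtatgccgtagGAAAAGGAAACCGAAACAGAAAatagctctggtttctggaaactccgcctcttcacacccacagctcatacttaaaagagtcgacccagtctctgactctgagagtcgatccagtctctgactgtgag
Isg15 itself averaged 3.48 CPM in wild type and was at 5.22, 5.78, 4.84 and 6.799 CPM in homozygous libraries, and all 4 were higher.

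Mup4 and Mup5, the 2 tested major urinary protein genes, were also put together after their values had been seen. They summed to 41.8, 37.5 and 8.23 CPM in wild type and to 2.36, 6.33, 1.32 and 0.0861 CPM in homozygous libraries, all below wild type. The separation came from Mup5, since Mup4 was at 0 in wild type replicate 3 and overlapped.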
